A study of Mus musculus with 15 samples.

Results

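Helper T cells polarised toward the Th17 lineage were compared with helper T cells polarised toward the Th1 lineage, both activated by antigen on antigen-presenting cells. The comparison rests on 4 of the 15 arrays of the series, 2 labelled Th17 culture with HA stimulation (Th17 HA) and 2 labelled Th1 culture with HA stimulation (Th1 HA). It covers all genes with a symbol, each represented by the probe set with the highest mean over the 15 arrays. Naive CD4+ T cells came from 3A9 mice, whose transgenic receptor recognises hen egg lysozyme (HEL), and were sorted with the clonotypic antibody 1G12. In both groups HEL at 2 µg/ml was presented by irradiated (30 Gy) wild-type naive splenocytes, the activation called HA, so residual splenocyte RNA may be present. The Th17 cocktail combined TGF-β (3 ng/ml) with IL-6 (10 ng/ml) and, at 5 ng/ml, IL-1α. It also blocked IFN-γ (20 µg/ml of antibody), IL-4 (10 µg/ml) and IL-12 (10 µg/ml). The Th1 cocktail was 10 ng/ml IL-12 while IL-4 was blocked (10 µg/ml of antibody). The cocktails differ in several agents at once, so the agents cannot be told apart. RNA was taken at day 4.

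For context, the same cocktails with activation by plate-bound antibodies to CD3 (1 µg/ml) and CD28 (10 µg/ml), called PBAB (2 arrays per lineage), are set beside them, as are Th9 HA cultures (2 arrays, HEL at 1 µg/ml, with 10 ng/ml of IL-4 and TGF-β at 1 ng/ml). Each lineage also had 1 array labelled APC alone, and the labels do not say what cells it held. The labels call the replicates biological without naming animals or cultures, so p-values measure only the spread between these samples.

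Th1 cells are the helper lineage of IFN-γ and of defence against intracellular microbes, and IL-12 acts through Stat4 and the transcription factor T-bet, encoded by Tbx21, to support Ifng expression. Th17 cells make IL-17A and related cytokines that recruit neutrophils. In mice they arise where TGF-β meets IL-6, which acts through Stat3 and factors that Stat3 induces. TGF-β without inflammatory cytokines favours Foxp3, the factor of regulatory T cells, and IFN-γ opposes the Th17 fate.

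Levels are log2 signals of the arrays, normalised by the authors with RMA, and are given for arrays 1 and 2 of a group in that order. Differences are Th17 minus Th1 on that log2 scale, with the standard error of the fit after ±. Genes above 5.07 in at least 2 arrays were tested, and this value is the threshold named below.

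The T cell identity genes, among them the CD3 chains, averaged 11.09 and 10.80 in Th17 HA and 11.15 and 10.90 in Th1 HA on the log2 scale of the arrays, against 6.86 to 7.79 in the arrays labelled APC alone. Over all genes, replicates correlated at 0.987 in Th17 HA and 0.988 in Th1 HA, and arrays of different lineage at 0.969 to 0.978. The 3′ minus 5′ actin signal lay between 0.05 and 0.10 in these 4 arrays. The 18S rRNA probe set read 11.33 and 9.58 in the Th17 HA arrays and 11.13 and 10.21 in the Th1 HA arrays. It was lower in replicate 2 of these and of every other HA and PBAB group. The BioB control probe set read 8.95 and 10.96 in Th17 HA and 9.60 and 10.70 in Th1 HA. It was higher in replicate 2 of every HA and PBAB group. The part of either shift in the results was not tested.

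In Th17 HA against Th1 HA, 1069 of 15498 genes tested (6.9%) were called, that is, had a Benjamini-Hochberg adjusted p under 0.05 in limma. Of these, 470 (3.03%) were higher and 599 (3.87%) lower in Th17 HA. The called differences reached 2 or more on the log2 scale in 246 genes, 101 higher and 145 lower, and 3 or more in 83 genes, 33 higher and 50 lower. The median difference of all genes tested was 0.02. With the replicate number as a block 2373 genes (15.3%) were called, 1168 higher (7.54%) and 1205 lower (7.78%), among them all 1069. Without Th17 HA 2 the count was 591, without Th1 HA 2 it was 695, and without Th1 HA 1 it was 709.

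**Figure D1:**
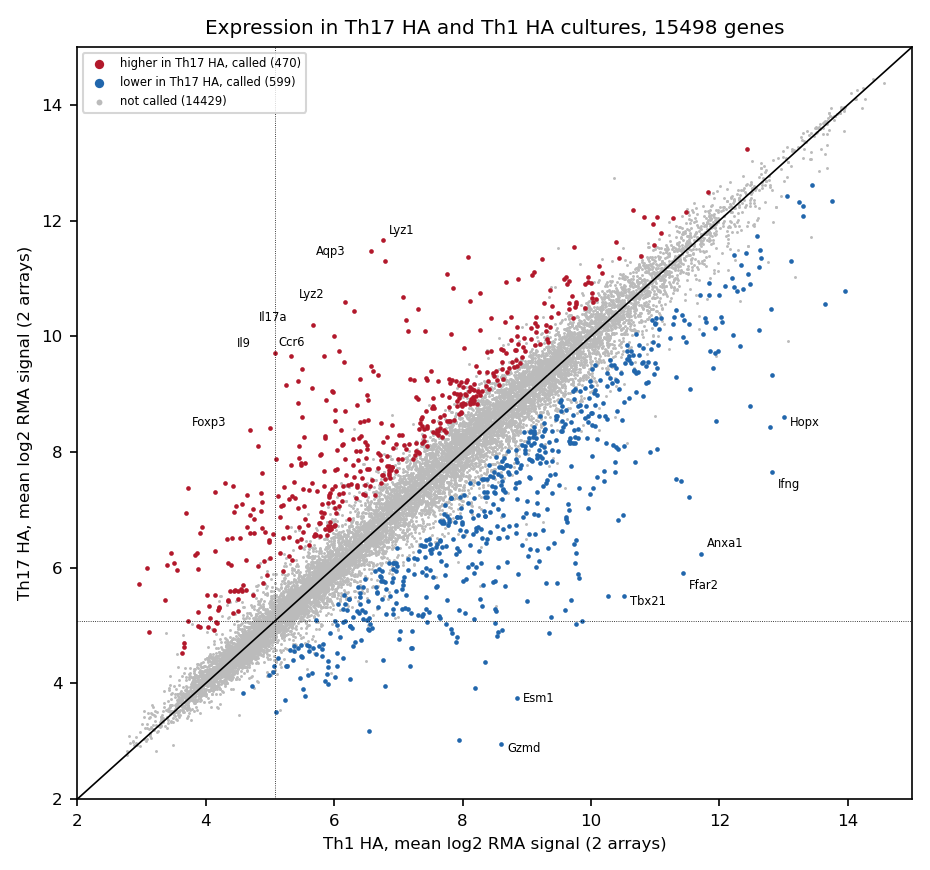
Mean log2 RMA signal of each gene in Th17 HA (vertical axis) and Th1 HA (horizontal axis), with 470 genes called higher in Th17 HA in red, 599 called lower in blue and the others in grey. The diagonal marks equal signal and dotted lines mark the filter threshold of 5.07, and the blue cloud reaches somewhat farther from the diagonal, with 50 genes past 3 log2 units against 33 red ones.

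Th17 lineage genes were mostly higher in Th17 HA, with 11 of the 17 tested members called higher, none called lower, and a median difference of 1.41. Il17a, the signature cytokine, read 10.72 and 9.67 in Th17 HA and 5.47 and 5.85 in Th1 HA. Both Th17 HA arrays lay far above both Th1 HA arrays, and the difference was 4.53 ± 0.30 (adjusted p = 1.84e-05), or 23.1-fold. Il21, a cytokine of Th17 and follicular helper cells, read 9.66 and 8.85 in Th17 HA and 6.62 and 6.19 in Th1 HA, a difference of 2.85 ± 0.39 (adjusted p = 0.00127). Ccl20, the ligand of Ccr6, was low in both groups, at 5.97 and 6.95 in Th17 HA and 5.37 and 5.48 in Th1 HA. Its call (adjusted p = 0.0432) was lost without Th1 HA 1, Th1 HA 2, Th1 PBAB 1, Th1 PBAB 2, Th9 HA 1, Th9 HA 2, Th9 PBAB 1, Th9 PBAB 2, Th17 HA 2, Th17 PBAB 1 or Th17 PBAB 2 (adjusted p 0.0518 to 0.253). In bulk cultures, fewer cells of a kind and less RNA per cell cannot be told apart, for these and all genes below.

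Among receptors of the Th17 lineage, Ccr6, which guides these cells toward Ccl20, read 9.69 and 9.63 in Th17 HA and 5.62 and 6.08 in Th1 HA. The groups were well apart, by 3.81 ± 0.30 (adjusted p = 3.63e-05). The arrays labelled APC alone also carried Ccr6 signal, at a mean of 8.56, and the part of splenocyte RNA in the difference was not tested. Il6ra, the receptor of the IL-6 in the Th17 cocktail, read 8.23 and 8.29 in Th17 HA and 5.16 and 5.92 in Th1 HA, and rose by 2.72 ± 0.26 (adjusted p = 0.000135). The other Il6ra probe set above the filter differed by less, 0.54. Il1r1, the signalling receptor for the IL-1α in that cocktail, read 8.91 and 8.71 in Th17 HA and 6.38 and 6.33 in Th1 HA, a difference of 2.45 ± 0.23 (adjusted p = 0.000125). Both cytokine receptors were higher in each Th17 HA array than in either Th1 HA array. Il17re, a receptor chain for IL-17C, differed by 0.67 and was not called (adjusted p = 0.0749). It was called higher with the replicate block (adjusted p = 0.0208) and with the mean of its probe sets. Its other probe sets above the filter differed by more, 2.40 and 1.41.

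Transcription factors of the lineage were less uniform. Ahr, the ligand-activated aryl hydrocarbon receptor, read 11.03 and 10.34 in Th17 HA and 7.29 and 6.84 in Th1 HA, 12.3-fold higher (3.62 ± 0.40, adjusted p = 0.000314). Another Ahr probe set, at a low mean level of 5.21 over all arrays, differed by 0.17. Rora, a ROR family factor, read 11.52 and 10.53 in Th17 HA and 9.66 and 9.57 in Th1 HA, a smaller difference of 1.41 ± 0.29 (adjusted p = 0.0132). The Rora call was lost without Th1 HA 1, Th1 HA 2 or Th17 HA 1 (adjusted p = 0.0575, 0.0748 and 0.0626). Maf, which drives Il10 and Il21, read 10.89 and 10.26 in Th17 HA and 9.51 and 9.03 in Th1 HA, and differed by 1.30 ± 0.27 (adjusted p = 0.0137). The Maf call was lost without Th1 HA 2 or Th17 HA 1 (adjusted p = 0.107 and 0.101), and with the mean of its probe sets. Batf, Stat3, Hif1a and Nfkbiz, which act in many activated T cells, were not called, with differences of −0.23, 0.60, −0.55 and −0.24. Without Th17 HA 1 Hif1a was called lower (adjusted p = 0.0395). Irf4 differed by 0.98 and was called only with the replicate block (adjusted p = 0.0197) or without Th1 HA 1 (adjusted p = 0.013).

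The paired membrane proteins Tmem176a and Tmem176b, found in Th17 cells and myeloid cells, rose together. Tmem176a read 11.60 and 11.13 in Th17 HA and 7.98 and 8.20 in Th1 HA (3.28 ± 0.26, adjusted p = 3.63e-05). Tmem176b read 11.23 and 10.91 in Th17 HA and 7.77 and 7.75 in Th1 HA (3.31 ± 0.33, adjusted p = 0.000159). Il17f, Il22 and Il23r had no probe set of their own in the annotation used and were not analysed here.

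Th1 lineage genes were mostly lower in Th17 HA, with 16 of 20 tested members called lower, none called higher and a median difference of −2.26. With the replicate block 18 were called lower. Without Th17 HA 2 the count called lower was 10. Ifng itself read 7.30 and 8.02 in Th17 HA and 13.20 and 12.44 in Th1 HA. The groups were far apart, by −5.16 ± 0.48 (adjusted p = 0.000105), or 35.6-fold lower. Tbx21 read 5.19 and 5.82 in Th17 HA and 10.66 and 10.36 in Th1 HA, a difference of −5.00 ± 0.43 (adjusted p = 5.9e-05). Its Th17 HA arrays were near the filter threshold of 5.07. Hlx, a homeobox factor that acts with T-bet, read 5.46 and 5.22 in Th17 HA and 8.95 and 7.66 in Th1 HA (−2.96 ± 0.34, adjusted p = 0.000451). Hopx, a factor of lasting Th1 effector cells, read 8.38 and 8.82 in Th17 HA and 12.89 and 13.12 in Th1 HA, and fell by 4.41 on the log2 scale.

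The IL-12 and IL-18 receptors moved in the same direction. Il12rb2, the inducible chain of the IL-12 receptor, read 5.22 and 4.51 in Th17 HA and 8.12 and 7.53 in Th1 HA (−2.96 ± 0.32, adjusted p = 0.000294). Il12rb1, its other chain, differed by −1.50 ± 0.36 (adjusted p = 0.0302), and its call was lost without Th1 HA 1 or Th17 HA 2 (adjusted p = 0.215 and 0.24). Il18r1 read 9.73 and 9.75 in Th17 HA and 11.86 and 12.09 in Th1 HA, so Th17 HA cultures still carried clear signal at a difference of −2.24 ± 0.20 (adjusted p = 9.34e-05). Il18rap, its partner chain, fell by 2.55 on the log2 scale (adjusted p = 0.000458).

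The 2 chains of the IFN-γ receptor moved in opposite directions. Ifngr1, the ligand-binding chain, read 11.15 and 10.70 in Th17 HA and 11.75 and 11.93 in Th1 HA (−0.92 ± 0.21, adjusted p = 0.0258), and its call was lost without Th1 HA 1, Th1 HA 2 or Th17 HA 2 (adjusted p = 0.0736, 0.147 and 0.215). Ifngr2, the signalling partner, read 9.26 and 9.20 in Th17 HA and 5.58 and 5.28 in Th1 HA. At 3.80 ± 0.23 (adjusted p = 1.09e-05) it was among the 15 largest rises. The other Ifngr2 probe set above the filter differed by less, 0.97.

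Fasl, the death ligand, read 5.34 and 5.69 in Th17 HA and 10.23 and 10.31 in Th1 HA, 27.0-fold lower. Havcr2, which encodes the inhibitory receptor Tim-3 of Th1 cells, read 3.76 and 4.07 in Th17 HA and 8.49 and 7.91 in Th1 HA, below the threshold in Th17 HA. Both had clearly separate groups. Cxcr3, a chemokine receptor of Th1 cells, differed by −2.08 ± 0.47 (adjusted p = 0.0238), and its call was lost without Th1 HA 2, Th17 HA 1 or Th17 HA 2 (adjusted p = 0.165, 0.135 and 0.0709). Cxcr6, another chemokine receptor, differed by −2.28 and was not called (adjusted p = 0.0622), but was with the replicate block (adjusted p = 0.0121). It was also called with quantile normalization repeated and with the arrays of the contrast alone. Stat4, the transducer of IL-12, differed by −1.08 (adjusted p = 0.0279), a call lost without Th1 HA 2 or Th17 HA 2 (adjusted p = 0.199 and 0.229). Eomes, a relative of T-bet, differed by −0.82 (adjusted p = 0.0221), a call lost without Th1 HA 1, Th1 HA 2, Th17 HA 1 or Th17 HA 2 (adjusted p = 0.131, 0.0756, 0.0744 and 0.139). Twist1, a Th1-associated factor, had both groups below the threshold. Runx3, Il27ra and Lta were not called, at −0.76, 0.30 and 1.41, although Runx3 was with the replicate block (adjusted p = 0.0244) and Lta, higher, without Th1 HA 1.

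**Figure D2:**
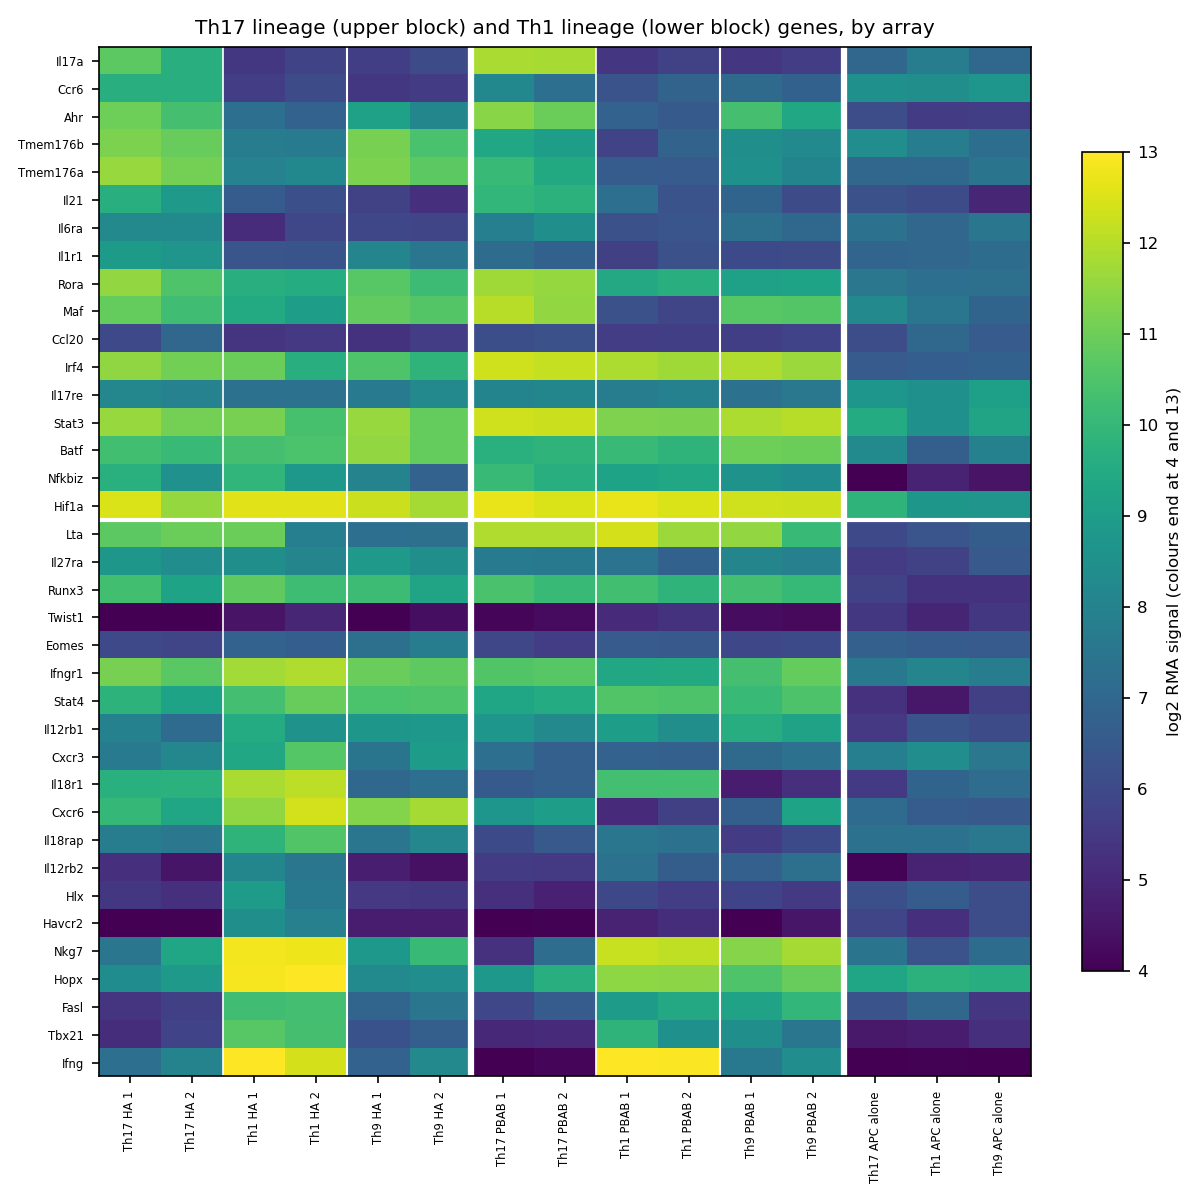
Log2 RMA signal of the 17 tested Th17 lineage genes (upper block) and 20 tested Th1 lineage genes (lower block), 1 column per array; colours run from 4 to 13. Il17a is bright in Th17 arrays under both activations and Ifng in Th1 arrays, while Ccr6 is also visible in the columns labelled APC alone.

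The promoters of the signature cytokines and of a granzyme pair are shown because the data turn on these genes and, for the granzymes, on how alike they are. The granzymes were chosen after their values were seen. Each window runs from 250 bases before to 50 bases after the gene's start (RefSeq, GRCm38.p6), 5′ to 3′ on the gene's strand. The windows lie at chr1:20730655-20730954 (+) for Il17a, chr10:118440796-118441095 (+) for Ifng, chr14:56132544-56132843 (−) for Gzmd and chr14:56120576-56120875 (−) for Gzme. Capitals mark matches, on either strand, to AGGTCA (ROR half-site), GTGTGA (T-box core), ACCACA (RUNX core) and TATAAA, the TATA box, and no matches overlap.
Il17a: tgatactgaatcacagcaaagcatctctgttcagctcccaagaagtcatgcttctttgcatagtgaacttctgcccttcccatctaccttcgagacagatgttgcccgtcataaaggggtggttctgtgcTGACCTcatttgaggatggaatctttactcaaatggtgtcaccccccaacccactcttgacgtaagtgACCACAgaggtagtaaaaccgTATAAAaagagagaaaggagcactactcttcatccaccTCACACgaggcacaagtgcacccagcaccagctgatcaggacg
Ifng: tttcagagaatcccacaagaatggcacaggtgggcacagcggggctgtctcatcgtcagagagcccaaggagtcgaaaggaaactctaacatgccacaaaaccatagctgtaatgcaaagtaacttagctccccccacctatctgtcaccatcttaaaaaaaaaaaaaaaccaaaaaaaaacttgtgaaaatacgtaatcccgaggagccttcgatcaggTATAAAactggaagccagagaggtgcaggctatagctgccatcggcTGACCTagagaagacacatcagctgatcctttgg
Gzmd: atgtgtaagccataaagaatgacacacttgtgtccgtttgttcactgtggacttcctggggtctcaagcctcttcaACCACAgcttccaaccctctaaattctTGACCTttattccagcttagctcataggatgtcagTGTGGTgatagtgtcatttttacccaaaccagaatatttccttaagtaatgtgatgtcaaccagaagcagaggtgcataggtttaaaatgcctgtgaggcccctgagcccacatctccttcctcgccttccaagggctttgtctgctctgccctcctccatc
Gzme: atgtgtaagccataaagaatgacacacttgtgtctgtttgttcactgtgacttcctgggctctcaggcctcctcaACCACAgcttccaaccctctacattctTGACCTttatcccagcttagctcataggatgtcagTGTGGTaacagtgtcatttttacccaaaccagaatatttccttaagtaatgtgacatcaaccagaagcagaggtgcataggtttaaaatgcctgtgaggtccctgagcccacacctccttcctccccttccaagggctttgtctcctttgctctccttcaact

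Il17a held 1 match to each motif, and Ifng held 1 ROR half-site match, 1 TATA box match and none to the others. Gzmd and Gzme each held 1 ROR half-site match and 2 RUNX core matches, and their windows were 94.0% identical over 299 aligned bases. The window of Gzmg, not shown, held 2 RUNX core matches and no ROR half-site match. It was 90.5% identical to that of Gzmd and 89.8% to that of Gzme. Of all 32851 promoter windows, 16.3% held the ROR half-site, 14.5% the T-box core, 16.8% the RUNX core and 13.6% the TATA box. Among windows of genes called higher in Th17 HA the ROR half-site was in 14.2% and the T-box core in 13.2%, and among windows of genes called lower in 13.7% and 13.2%. Windows of all genes tested held them in 13.8% and 12.0%. A match describes letters only.

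Many granzymes and other cytotoxic genes were called lower in Th17 HA. Of 19 tested members of the cytotoxic granule list, 10 were called lower in Th17 HA and none higher, with a median difference of −2.67. Members that were not called included Klrd1 (0.84) and Klrc1 (0.65), chains of NK cell receptors, and the granzymes Gzma (−3.17) and Gzmc (−2.57). Lamp1 (0.50), a lysosome membrane protein, was not called either. The replicate block called Lamp1 higher (adjusted p = 0.0211), and Gzma and Gzmc lower (adjusted p = 0.00325 and 0.00302). With the block 12 members were called lower and 1 higher. Gzmd, a granzyme, read 2.73 and 3.19 in Th17 HA and 8.70 and 8.50 in Th1 HA, below the threshold in Th17 HA. Its difference of −5.65 ± 0.89 (adjusted p = 0.00309) had the largest size of all called genes. Gzmg read 3.07 and 2.99 in Th17 HA and 8.02 and 7.87 in Th1 HA, and Gzme 3.03 and 3.32 in Th17 HA and 6.60 and 6.48 in Th1 HA, both again below the threshold in Th17 HA. Gzmd, Gzme and Gzmg are closely related copies whose probes may cross-hybridise, so the signal cannot be assigned to a single copy with certainty. Gzmk, a tryptase-like granzyme, read 4.68 and 5.15 in Th17 HA and 8.40 and 8.84 in Th1 HA (−3.71 ± 0.26, adjusted p = 1.89e-05).

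Nkg7, a granule membrane protein, read 7.54 and 9.31 in Th17 HA and 12.83 and 12.76 in Th1 HA, 20.6-fold lower, with a wide gap between its Th17 HA arrays. Serpinb9, which protects cells from their own granzyme B, read 7.14 and 6.85 in Th17 HA and 9.56 and 9.76 in Th1 HA (−2.67 ± 0.23, adjusted p = 6.34e-05). Gzmb and Prf1, central to killing, were picked after their values were seen. Gzmb, granzyme B itself, read 9.62 and 11.95 in Th17 HA and 14.19 and 13.72 in Th1 HA, so Th17 HA arrays still carried much signal. Its call (adjusted p = 0.0426) was lost without Th1 HA 1, Th1 HA 2, Th1 PBAB 1, Th1 PBAB 2, Th9 HA 1, Th9 HA 2, Th9 PBAB 1, Th9 PBAB 2 or Th17 HA 1 (adjusted p 0.0587 to 0.251). Prf1, the pore-forming perforin, read 6.29 and 6.75 in Th17 HA and 8.84 and 8.31 in Th1 HA (−2.06 ± 0.29, adjusted p = 0.00172). With the mean of its probe sets the Prf1 call was lost (adjusted p = 0.291).

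Many genes that interferons induce, but not all, were called lower in Th17 HA. Of 18 tested IFN-γ-inducible genes, 10 were called lower and none higher (median −1.28), and without Th17 HA 2 the count called lower was 6. With the replicate block 13 of the 18 genes were called lower. Gbp7, an interferon-induced GTPase, read 7.15 and 7.92 in Th17 HA and 11.05 and 11.59 in Th1 HA (−3.79 ± 0.46, adjusted p = 0.000593). Gbp6, of the same family, fell by 2.71 on the log2 scale (adjusted p = 0.000994). Irf1, a transcription factor induced by IFN-γ, read 9.62 and 9.27 in Th17 HA and 11.11 and 10.93 in Th1 HA, a smaller difference of −1.58 ± 0.16 (adjusted p = 0.000219). Psmb9, a subunit of the immunoproteasome, differed by −1.37 ± 0.17 (adjusted p = 0.000592). Cxcl9 and Ciita, also IFN-γ targets, were not called, at 0.82 and 0.04.

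Of 22 tested type I interferon-stimulated genes, 9 were called lower and none higher (median −0.88), and 12 were called lower with the replicate block. The count called lower was 4 without Th1 HA 2 and 5 without Th17 HA 1. Usp18, which curbs type I interferon signalling, read 5.44 and 5.44 in Th17 HA and 9.66 and 9.72 in Th1 HA, 19.1-fold lower (adjusted p = 1.84e-05). Isg20, an antiviral exonuclease, read 6.34 and 6.92 in Th17 HA and 9.43 and 9.66 in Th1 HA. Oas3, an antiviral enzyme activated by double-stranded RNA, differed by −2.08 ± 0.17 (adjusted p = 3.63e-05), and Bst2, the antiviral tetherin, by −1.01 ± 0.17 (adjusted p = 0.00477). Epsti1, an interferon-induced gene outside both lists, was among the 15 largest falls, at 6.98 and 7.46 in Th17 HA and 11.23 and 11.83 in Th1 HA.

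In the TGF-β pathway list, 7 of 15 tested members were called higher in Th17 HA, the group that received TGF-β, and none lower, with a median difference of 0.88. Itgae, the CD103 integrin chain that TGF-β induces, read 9.78 and 10.23 in Th17 HA and 5.94 and 6.05 in Th1 HA, 16.1-fold higher (4.01 ± 0.32, adjusted p = 3.72e-05). Skil, a repressor of Smad signalling, averaged 11.33 in Th17 HA and 9.24 in Th1 HA (2.08 ± 0.21, adjusted p = 0.000177). Tgif1, a further repressor, rose by 1.43 ± 0.23 (adjusted p = 0.00337), and the receptor chain Tgfbr1 by 1.77 ± 0.25 (adjusted p = 0.00166). Among the other members called higher were Smad7 (0.88), an inhibitor induced by the pathway itself, and Tgfbr2 (0.92), while Smad2, Smad3 and Smad4 were not called. Pmepa1, a TGF-β target that restrains the pathway, was picked after its values were seen and read 10.59 and 9.97 in Th17 HA and 7.50 and 6.74 in Th1 HA.

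The regulatory T cell list split, with 5 of 13 tested members called higher and 3 lower (median 1.06). With the replicate block 7 were called higher and 5 lower. Foxp3 read 8.26 and 8.48 in Th17 HA and 4.71 and 4.67 in Th1 HA, below the threshold in Th1 HA (3.68 ± 0.43, adjusted p = 0.000453). Nt5e, the CD73 enzyme that makes adenosine, read 7.92 and 8.12 in Th17 HA and 6.45 and 6.36 in Th1 HA (1.62 ± 0.19, adjusted p = 0.000551). Entpd1, the CD39 enzyme that acts before Nt5e in the same route, moved the opposite way. It read 6.38 and 6.13 in Th17 HA and 10.26 and 9.28 in Th1 HA, 11.4-fold lower (−3.51 ± 0.35, adjusted p = 0.000155). Tnfrsf4, the OX40 receptor, fell by 1.20 on the log2 scale, a call lost without Th1 HA 1 or Th17 HA 2 (adjusted p = 0.114 and 0.133).

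Of 14 tested genes of the IL-6 and IL-1 pathway, 3 were called higher and none lower, with a median of 0.00. Beside Il6ra and Il1r1, the third was Il1rn, the IL-1 receptor antagonist, at 7.92 and 9.15 in Th17 HA and 6.18 and 5.83 in Th1 HA (2.53 ± 0.33, adjusted p = 0.000965). Pim1, a kinase induced by cytokine signals, differed by −0.70 and was not called (adjusted p = 0.0528), but was with the replicate block (adjusted p = 0.00766). A stricter filter, the mean of its probe sets, either change of normalization and another variance model also called it lower.

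Of 14 tested Th2 and Th9 lineage genes, 4 were called higher and 1 lower (median 0.22), and without Th17 HA 2 the counts were 2 and 0. Il9, the cytokine that defines Th9 cells, read 9.01 and 10.41 in Th17 HA and 5.07 and 5.08 in Th1 HA. The difference from Th1 HA was 4.63 ± 0.80 (adjusted p = 0.00563), and its call was lost without Th17 HA 2 (adjusted p = 0.0578). Th9 HA arrays read 5.39 and 6.29, and Il9 was higher in Th17 HA than in Th9 HA by 3.86 (adjusted p = 0.0219). The chemokine receptors Ccr8 (2.09 ± 0.26, adjusted p = 0.000707) and Ccr4 (1.61 ± 0.21, adjusted p = 0.000906), better known from Th2 and skin-homing cells, rose. Il10, the anti-inflammatory cytokine, read 8.64 and 7.37 in Th17 HA and 11.63 and 10.21 in Th1 HA. It was called lower (−2.92 ± 0.61, adjusted p = 0.0157), a call lost without Th1 HA 1 or Th17 HA 2 (adjusted p = 0.121 and 0.142).

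Other ligands went both ways, with 5 of 24 tested chemokine and cytokine ligands called higher and 3 lower (median 0.40). With the replicate block 8 were called higher, and 3 without Th17 HA 2, Th1 HA 2 or either array of Th1 PBAB or Th9 PBAB. Il2, the T cell growth factor, read 7.00 and 7.61 in Th17 HA and 4.02 and 4.28 in Th1 HA, below the threshold in Th1 HA (3.16 ± 0.27, adjusted p = 6.36e-05). Ccl9, a chemokine of myeloid cells, read 8.53 and 8.91 in Th17 HA and 5.87 and 6.15 in Th1 HA, and the arrays labelled APC alone averaged 8.53. Csf1, the macrophage growth factor, read 6.18 and 6.40 in Th17 HA and 7.91 and 8.59 in Th1 HA (−1.96 ± 0.21, adjusted p = 0.000239). Csf2, which encodes GM-CSF, and Ccl5, a chemokine of effector cells, were picked after their values were seen. Csf2 read 5.83 and 6.19 in Th17 HA and 9.17 and 9.13 in Th1 HA (−3.14 ± 0.40, adjusted p = 0.000766), and Ccl5 fell by 2.10 on the log2 scale (adjusted p = 0.000613).

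Of 21 tested trafficking receptors, 4 (Itgae, Ccr6, Ccr8 and Ccr4) were called higher and 3 (Ccr2, Cxcr3 and Gpr183) lower (median 0.12). The lower count was 6 with the replicate block, 0 without Th1 HA 2 or Th17 HA 2 and 1 without Th17 HA 1. Ccr7, which holds cells in lymph nodes, differed by 0.82 and was called only with the block (adjusted p = 0.00362). Gpr15, which directs T cells to the colon, lay outside that list and read 10.39 and 10.47 in Th17 HA and 5.94 and 6.69 in Th1 HA, 17.3-fold higher (4.12 ± 0.23, adjusted p = 8.55e-06).

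The largest called rise of all genes was Aqp3, a water and glycerol channel, at 11.76 and 11.19 in Th17 HA and 6.31 and 6.82 in Th1 HA, 30.0-fold higher (4.91 ± 0.33, adjusted p = 1.84e-05). Cpd, carboxypeptidase D, read 11.43 and 11.18 in Th17 HA and 6.78 and 6.79 in Th1 HA. Pdpn, podoplanin, read 9.69 and 9.63 in Th17 HA and 5.70 and 4.95 in Th1 HA. For all 3 membrane proteins the gap between groups far exceeded that between replicates. Spsb1, a substrate adaptor of ubiquitin ligases, rose by 3.93 ± 0.39 (adjusted p = 0.000166), and Ldlrad4, an inhibitor of TGF-β signalling, by 3.90 ± 0.34 (adjusted p = 6.36e-05). Their other probe sets above the filter differed by less, 0.72, 1.61 and 1.84 for Spsb1 and 3.15 and 0.05 for Ldlrad4. Tox2, an HMG-box factor, read 10.92 and 8.58 in Th17 HA and 6.40 and 5.76 in Th1 HA, and its call (adjusted p = 0.0231) was lost without Th1 HA 1, Th1 HA 2 or Th17 HA 1 (adjusted p = 0.0676, 0.127 and 0.15).

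Among the largest falls outside the lists, Ffar2, a receptor for short-chain fatty acids, read 5.77 and 6.06 in Th17 HA and 11.42 and 11.45 in Th1 HA, 45.9-fold lower (−5.52 ± 0.17, adjusted p = 1.82e-07). Anxa1, annexin A1, an anti-inflammatory protein, averaged 6.24 in Th17 HA and 11.71 in Th1 HA, 44.4-fold lower. Another Anxa1 probe set, at a low mean level of 4.29 over all arrays, differed by −0.34. Esm1, a secreted proteoglycan best known from endothelial cells, read 3.85 and 3.64 in Th17 HA and 9.11 and 8.59 in Th1 HA, below the threshold in Th17 HA. For each of these genes the groups did not overlap, which held for 43.4% of all genes tested. Serpinb5, the serpin maspin, fell by 4.78 on the log2 scale. Itih5, of a family of hyaluronan-binding proteins, differed by −4.47 and the receptor gene Slamf7 by −4.32.

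**Figure D3:**
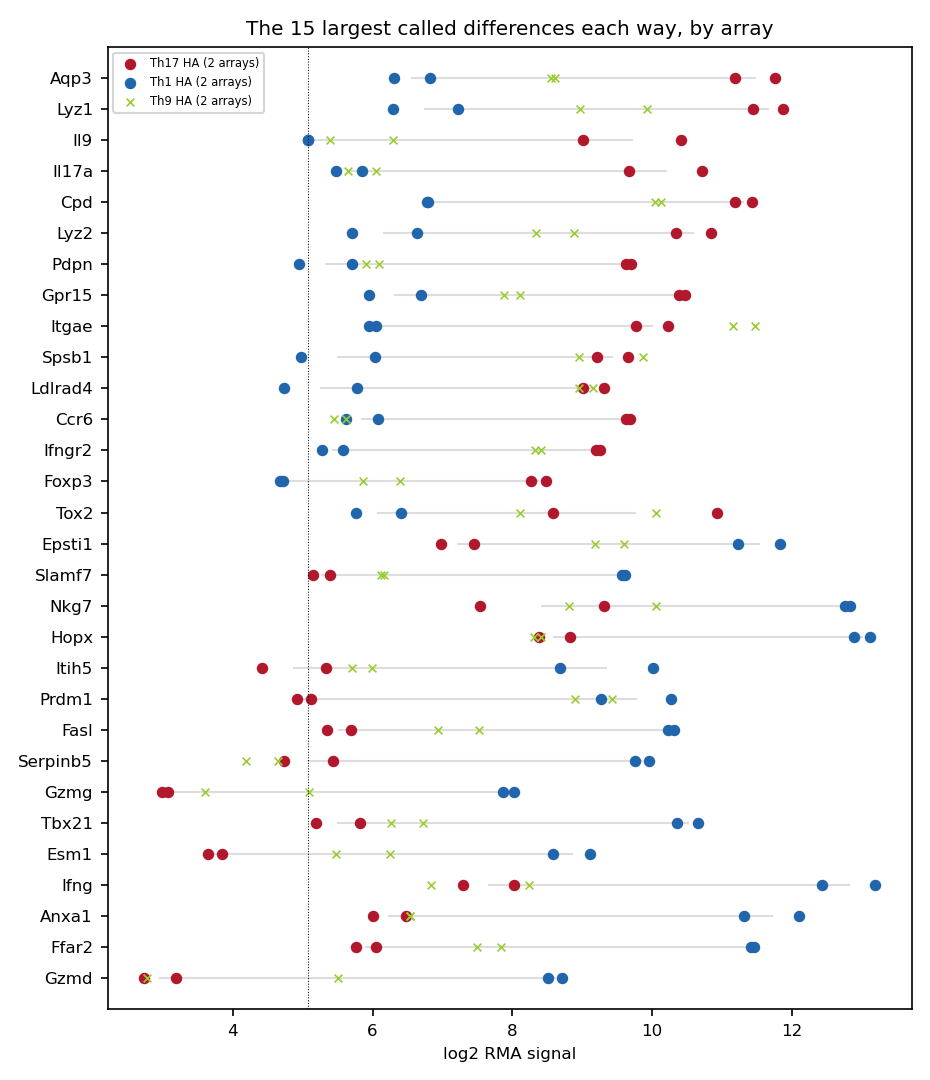
Log2 RMA signal (horizontal axis) in each Th17 HA array (red), Th1 HA array (blue) and Th9 HA array (green crosses) for the 15 largest called rises and the 15 largest called falls in Th17 HA with no overlap of arrays; the dotted line is the filter threshold of 5.07 and grey lines join the means. Gzmd, Gzmg and Esm1 lie well below the threshold in Th17 HA, the Th9 HA crosses of Itgae lie above its Th17 HA dots and those of Spsb1 lie on both sides of them.

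Prdm1, which encodes the repressor Blimp-1 of effector differentiation, belonged to the naive and memory list and read 4.92 and 5.12 in Th17 HA and 10.27 and 9.26 in Th1 HA (−4.75 ± 0.34, adjusted p = 1.89e-05). In the same list Bach2, a factor of the resting state, rose by 1.26 (adjusted p = 0.0277), a call lost without Th1 HA 1 or Th17 HA 1 (adjusted p = 0.203 and 0.171) and with the mean of its probe sets. Id2, an effector regulator, fell by 1.29 on the log2 scale (adjusted p = 0.0267), a call lost without Th1 HA 1, Th1 HA 2 or Th17 HA 2 (adjusted p = 0.109, 0.114 and 0.216). Of the 12 tested members, 1 was called higher and 2 lower (median 0.06).

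Of 14 tested inhibitory and costimulatory receptors, 3 (Havcr2, Tnfrsf4 and Cd28) were called lower and none higher, with a median of −0.74. The count was 9 with the replicate block and 1 without Th17 HA 2. Cd28, the main costimulatory receptor, read 10.99 and 10.43 in Th17 HA and 11.50 and 11.89 in Th1 HA (adjusted p = 0.0404), a call lost without Th1 HA 1, Th1 HA 2, Th1 PBAB 1, Th1 PBAB 2, Th9 HA 1, Th9 HA 2, Th17 HA 2, Th17 PBAB 1 or Th17 PBAB 2 (adjusted p 0.0563 to 0.303). Cd27, another costimulatory receptor, differed by −1.26 (adjusted p = 0.0654) and was called with the block (adjusted p = 0.00998) and with the arrays of the contrast alone.

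Of 26 tested glycolysis and hypoxia genes, 6 were called lower in Th17 HA and none higher, with a median of −0.76. The count called lower was 0 without Th17 HA 2 or Th1 HA 1, 1 without Th1 HA 2, 12 without Th17 HA 1, 2 without either Th17 PBAB array, 3 without either Th9 PBAB array and 13 with the replicate block. P4ha2, a collagen prolyl hydroxylase induced by low oxygen, read 8.20 and 5.55 in Th17 HA and 9.75 and 9.47 in Th1 HA. Aldoc, an aldolase of glycolysis, read 10.30 and 7.88 in Th17 HA and 11.79 and 11.30 in Th1 HA. In both genes Th17 HA 2 lay far below Th17 HA 1. Their calls (adjusted p = 0.0371 for P4ha2 and 0.0392 for Aldoc) were each lost under 10 of 22 alternative fits. Among these were the fits without Th17 HA 2, Th1 HA 1 or Th1 HA 2. Pfkfb4, a regulator of glycolytic flux, read 6.51 and 6.49 in Th17 HA and 7.65 and 7.30 in Th1 HA (−0.97 ± 0.18, adjusted p = 0.00731), a call lost without Th1 HA 1 or Th17 HA 2 (adjusted p = 0.0684 and 0.0523). Ankrd37, a hypoxia target, differed by −1.70 (adjusted p = 0.0252), a call lost without Th1 HA 1, Th1 HA 2, Th17 HA 1 or Th17 HA 2 (adjusted p = 0.073, 0.134, 0.0909 and 0.138).

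Of 26 tested cell cycle genes, none was called (median 0.14), against 6.9% of all genes tested. The replicate block called 1, Mcm3 of the replicative helicase (adjusted p = 0.0218), which was also called with the mean of its probe sets. Top2a, Pcna and Ccne1, which mark dividing cells, differed by 0.49, −0.24 and −0.41. None of the 13 tested T cell identity genes was called (median −0.07), and the block called 2 lower, one of them Cd247, the CD3 zeta chain (adjusted p = 0.0173).

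Some genes of cells other than helper T cells were also called. Of 18 tested macrophage and monocyte genes, 10 were called higher in Th17 HA and none lower, with a median of 1.29. The mean level of the list was 6.54 and 6.79 in Th17 HA and 5.16 and 5.08 in Th1 HA, with 5.75 to 6.14 in Th9 HA and 9.52 to 9.77 in the arrays labelled APC alone. Lyz1, lysozyme 1, read 11.44 and 11.87 in Th17 HA and 7.22 and 6.29 in Th1 HA, 29.9-fold higher (4.90 ± 0.50, adjusted p = 0.000178). Lyz2, the lysozyme of macrophages, read 10.34 and 10.84 in Th17 HA and 6.63 and 5.70 in Th1 HA. Its probes may also detect the close relative Lyz1, and the converse. Marco, a scavenger receptor, read 7.70 and 7.92 in Th17 HA and 5.53 and 5.43 in Th1 HA (2.33 ± 0.18, adjusted p = 3.12e-05). Mpeg1, the macrophage perforin, rose by 2.22 ± 0.25 (adjusted p = 0.000356). Of the defining genes, Adgre1 averaged 4.84 in Th17 HA and 4.74 in Th1 HA, below the threshold in both, and Csf1r averaged 7.18 in Th17 HA and 5.30 in Th1 HA.

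Under PBAB, where activation came from antibodies on the plate, the macrophage list had no member called higher and 1 called lower, Cd68, a lysosomal protein (−1.59, adjusted p = 0.0358). The list averaged 4.83 to 5.02 in Th17 PBAB and 4.94 to 5.17 in Th1 PBAB. The part of residual splenocyte RNA in the other differences between Th17 HA and Th1 HA was not tested. Of 14 tested B cell genes, 4 were called higher in Th17 HA and none lower (median 0.17), and without Th17 HA 2 there were 2. Their mean level was 5.84 and 6.03 in Th17 HA and 5.17 and 5.35 in Th1 HA, and 6.50 to 6.52 in APC alone. Ms4a1, which encodes CD20, averaged 5.16 in Th17 HA and 5.00 in Th1 HA, and Pax5, the B cell factor, 5.59 in Th17 HA and 5.41 in Th1 HA. Cd72, a B cell coreceptor, read 8.84 and 8.95 in Th17 HA and 6.11 and 5.63 in Th1 HA, against a mean of 6.18 in APC alone. Pou2af1, a B cell coactivator, read 7.57 and 7.19 in Th17 HA and 3.41 and 4.03 in Th1 HA, against 5.32 in APC alone. Both genes were thus higher in the Th17 HA arrays than in that mean. Under PBAB 3 B cell genes were called higher in Th17 PBAB and 1 lower. Pou2af1 (3.22, adjusted p = 0.000254), Cd72 (1.45, adjusted p = 0.00379) and Cd79b (1.09, adjusted p = 0.0069) were higher there. Ms4a1 (−1.14, adjusted p = 0.0065) was lower.

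Of 9 tested neutrophil genes, S100a8 and S100a9, the calprotectin subunits, were called higher and Cxcr2 lower. S100a8 read 5.92 and 6.66 in Th17 HA and 4.09 and 4.21 in Th1 HA, below the threshold in Th1 HA. The Cxcr2 call was lost without Th17 HA 1 (adjusted p = 0.0668). Of 8 tested dendritic cell genes 1, Itgax, was called, higher by 0.84 (adjusted p = 0.0317), a call lost without Th1 HA 1, Th1 HA 2, Th17 HA 1, Th17 PBAB 1 or Th17 PBAB 2 (adjusted p 0.0517 to 0.204). No MHC class II gene of 7 and no erythroid gene of 3 was called, against 6.9% of all genes tested, so such short lists say little. The block called H2-Aa higher (adjusted p = 0.0023) and H2-Oa lower (adjusted p = 0.0242). Among 5 genes of CD8, NK and γδ T cells, Klre1 and Trgv4 were called higher. Trgv4, a γδ receptor segment, read 8.88 and 9.11 in Th17 HA and 6.49 and 6.54 in Th1 HA, and its call (adjusted p = 0.0257) was lost without Th1 HA 1, Th1 HA 2, Th17 HA 1 or Th17 HA 2 (adjusted p = 0.112, 0.102, 0.0857 and 0.148).

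**Figure D4:**
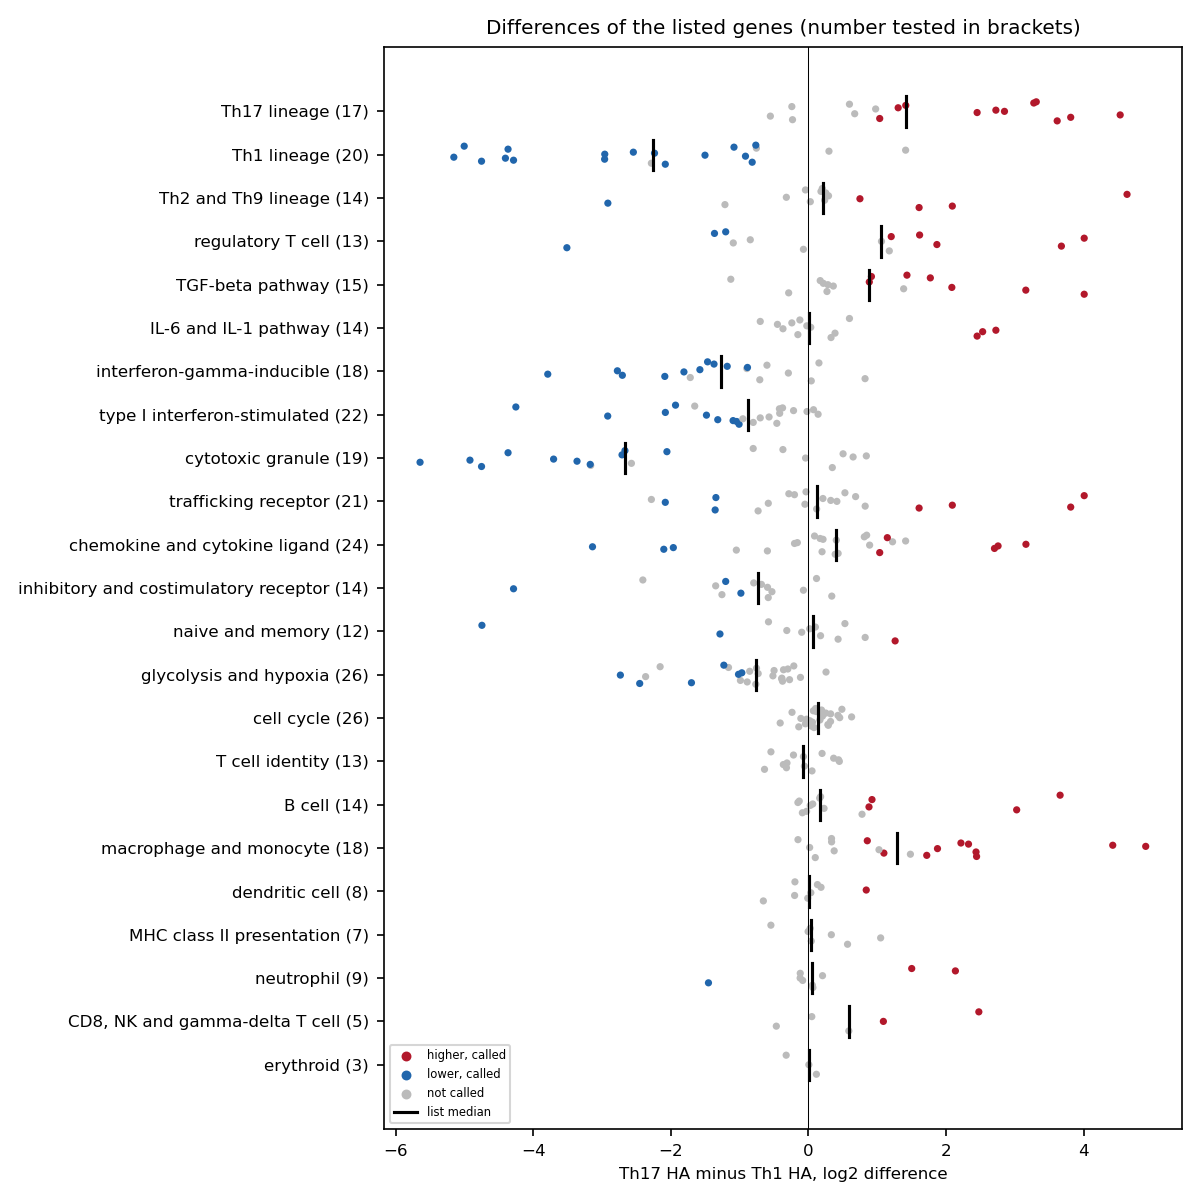
Log2 difference, Th17 HA minus Th1 HA, of each tested member of the 23 gene lists (points), with called members in red (higher) or blue (lower), others in grey, and the list median as a black bar. The Th17 lineage, TGF-β and macrophage lists have medians of 1.41, 0.88 and 1.29, and the Th1 lineage and cytotoxic granule lists −2.26 and −2.67.

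The lineage difference was then set beside that under PBAB, which rests on other arrays. Under PBAB 1083 genes (6.99%) were called, 598 higher (3.86%) and 485 lower (3.13%) in Th17 PBAB. The genes called higher under both activations numbered 154, which was 32.8% of those higher under HA and 25.8% of those higher under PBAB. Those called lower under both numbered 170, or 28.4% of those lower under HA and 35.1% of those lower under PBAB. In opposite directions 29 genes were called. The difference between the lineage differences was itself called for 547 genes (3.53%), 214 more positive (1.38%) and 333 more negative (2.15%) under HA. That count was 209 to 357 without Th17 HA 2, either Th1 HA array or any of the Th17 PBAB and Th1 PBAB arrays, and 1828 with the replicate block.

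Il17a was higher in Th17 under both activations, by 4.53 under HA and 6.26 under PBAB, and the gap between these was not called (adjusted p = 0.0572). Aqp3 (4.91 under HA and 4.43 under PBAB) and Tbx21 (−5.00 under HA and −4.14 under PBAB) had no called difference between activations either. Ifng was lower in Th17 by 5.16 under HA and by 9.35 under PBAB, a difference between activations of 4.20 (adjusted p = 0.00891). Il10 was lower in Th17 under HA (−2.92) and higher under PBAB (3.81), a difference of −6.73 (adjusted p = 0.00297). Il2 showed the opposite order, at 3.16 under HA and −1.84 under PBAB (difference 5.00, adjusted p = 0.000314).

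Maf, whose rise under HA was 1.30, rose by 5.74 under PBAB (difference −4.43, adjusted p = 0.000524). Esm1 and Ffar2 differed strongly between the lineages under HA (−5.11 and −5.52) and less under PBAB (0.13 and −0.82). The Ffar2 difference under PBAB was smaller but in the same direction. Ccl3, an inflammatory chemokine, and Cd70, the ligand of Cd27, showed no called difference under HA (−0.60 and −0.32), and fell by 6.22 and 4.70 on the log2 scale in Th17 PBAB. Itgae rose by 4.01 under HA and was not called under PBAB (0.41, adjusted p = 0.583), with a called difference of 3.60. Of the macrophage list, 8 of 18 members had a called positive difference between activations.

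**Figure D5:**
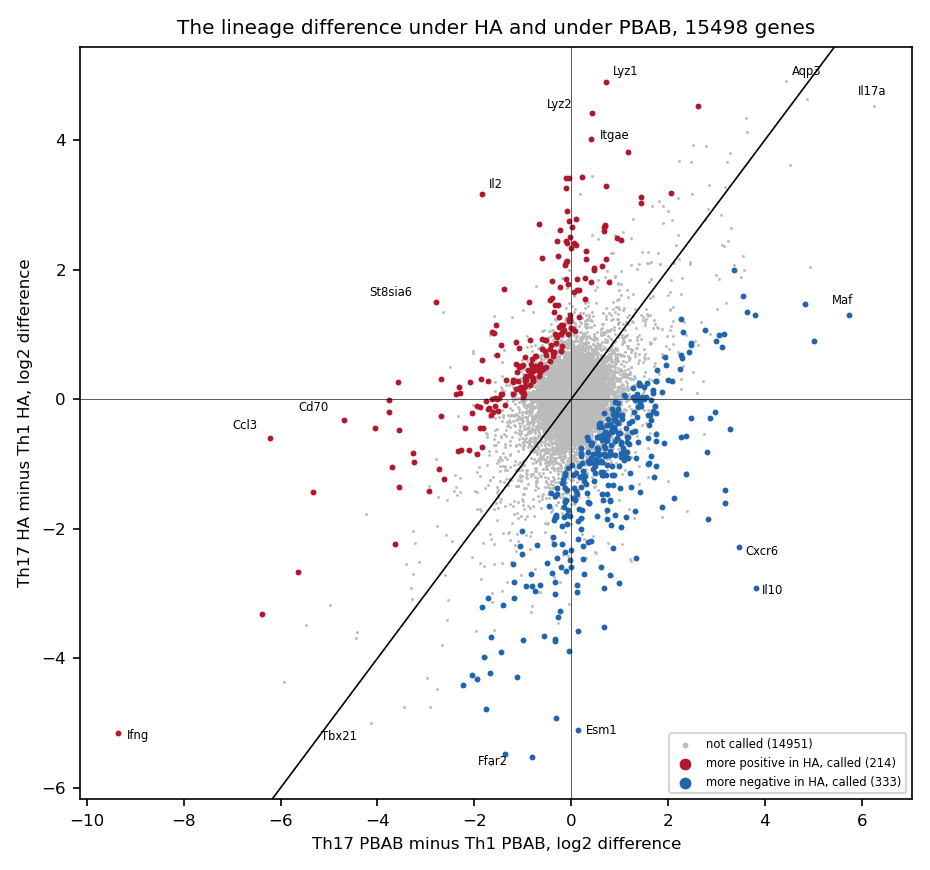
Log2 difference between the lineages under HA (vertical axis) against that under PBAB (horizontal axis) for each of 15498 genes, with the 214 genes more positive under HA in red, the 333 more negative in blue and the others in grey; the diagonal marks equal differences. Il10, at −2.92 under HA and 3.81 under PBAB, lies in the lower right, and Il2, at 3.16 and −1.84, in the upper left.

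Against Th9 HA cultures, which also received TGF-β but less HEL, 739 genes (4.77%) were called in Th17 HA, 404 higher (2.61%) and 335 lower (2.16%). Without Th17 HA 1, Th17 HA 2, Th9 HA 1 or Th9 HA 2 the count was 372, 364, 374 and 390, and 1831 with the replicate block. This comparison shares its Th17 HA arrays with the one against Th1 HA, so values are given side by side. Il17a stood 4.35 above Th9 HA and 4.53 above Th1 HA, and Ccr6 4.13 above Th9 HA and 3.81 above Th1 HA. Spsb1, Ldlrad4, Tmem176a and Tmem176b had differences from Th9 HA of 0.03, 0.10, 0.39 and 0.27, none of them called, against 3.93, 3.90, 3.28 and 3.31 from Th1 HA. Itgae differed by −1.31 from Th9 HA (adjusted p = 0.0454), lower in Th17 HA and close to the cutoff. Calls of single genes against Th9 HA, that of Il9 among them, were not checked with arrays left out. Ifng and Hopx differed from Th9 HA by 0.12 and 0.24, neither called. Prdm1 differed from Th9 HA by −4.14 (adjusted p = 9.5e-05) and from Th1 HA by −4.75.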

How the data were processed

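RNA (500 ng per sample) from T helper cultures was measured on 15 Affymetrix mouse arrays. The authors deposited log2 expression values for 45101 probe sets, made with RMA (background correction, quantile normalization and probe summarisation) per the submitters' processing notes. The RMA software has no version in those notes (not given in the sources used here). The values lie in a range typical of base 2, the only evidence for the base. Background and array-wide shifts removed by RMA cannot be recovered, so differences are relative to the bulk of genes.

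Gene symbols came from GEO's 2016 annotation of the platform. Of the probe sets, 34958 had 1 symbol, 932 several and 9211 are unnamed here. Of 18194 genes, 15498 exceeded the 40th percentile of the table (5.07) in at least 2 arrays and were tested. A group-means model over all 15 arrays was fitted with limma 3.58.1 in R 4.3.3 (lmFit, eBayes; 6 residual and 4.38 prior degrees of freedom), with Benjamini-Hochberg adjustment at 0.05 over all genes tested. Values are Th17 minus Th1 with the standard error (SE) of the fit. A fold is given where both group means exceed the threshold. The script was tested on simulated data.

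Same-numbered arrays of different groups deviated together in all 15 pairs of groups (correlation 0.296 to 0.708, median 0.484). The main fit, which gave the counts, standard errors and adjusted p unless a block is named, did not use this pairing. Only the alternative fit with the replicate number as a block took same-numbered arrays as pairs. A fit with the replicate block is given where it changes the call of a named gene in Th17 HA against Th1 HA, and for some list counts. Other alternatives changed the filter, probe set choice, normalization, arrays fitted, weights, variance model, and left out each activated array.

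The genes named were the 15 largest called differences each way with no overlap of arrays, all Th17 and Th1 lineage genes, the 4 smallest p of each other list, and the 5 largest called differences each way between HA and PBAB. A further 15 genes and the granzyme promoters were picked after values were seen, as were other list members named by their values. The comparison and all 23 lists were chosen with earlier results of these data known, so counts over lists are descriptions.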

Additional observations from a re-analysis of the deposited data

Results flagged for a closer look

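Of 147 genes examined, 50 had a called difference between the lineage differences, Th17 minus Th1, under HA and under PBAB, 27 positive and 23 negative (limma, adjusted over all 15498 genes, background 3.53%). All values here are differences on the log2 scale, HA minus PBAB. The genes include those named because this difference was large, and those picked after their values were seen, so their number is a description.

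Positive values, where the lineage difference was more positive under HA, included the ligands Ccl3 5.62, Il2 5.00, Cd70 4.38, Ifng 4.20, Ccl9 3.36 and Cxcl3 2.80. Macrophage and myeloid genes were Lyz1 4.18, Lyz2 3.98, Clec7a 3.51, Wfdc17 3.46, Clec4e 3.38, Clec4n 3.19, Apoe 2.74, Cd14 2.53, Mpeg1 2.48, Marco 2.33 and S100a8 2.22, and B cell genes Cd72 1.58 and Ighm 1.52. Receptors and adhesion molecules were Itgae 3.60, Ccr6 2.64, Il1r1 1.43 and Il18r1 1.41, and the remaining positive values were St8sia6 4.28, Nr4a3 3.08, Serpinb9 2.97 and Cpd 1.90.

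Negative values among cytokines, cytokine receptors and their regulators were Il10 −6.73, Csf1 −1.78, Ifngr1 −2.10 and Cxcr6 −5.76. Transcription factors were Maf −4.43, Hopx −2.17 and Hlx −2.21, granzymes Gzmg −4.62, Gzmk −3.38 and Gzme −3.10, and interferon-induced genes Isg20 −3.60 and Usp18 −2.21. Surface molecules were Entpd1 −4.20, Ffar2 −4.70, Havcr2 −3.17 and Slamf7 −2.39. The remaining negative values were Esm1 −5.24, 2610528A11Rik −4.78, Anxa1 −4.11, S100a6 −3.80, Rhoq −3.55, Serpinb5 −3.02 and Pfkfb4 −1.54.

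Of the 50, 39 kept the call under each alternative tried, and none reversed. The call was lost under at least 1 alternative for Lyz1, Cd14, Cd72, Ighm, Il1r1, Il18r1, Hopx, Usp18, Hlx, Slamf7 and Serpinb5. What moves with these differences was not tested, and macrophage gene levels are given beside the macrophage list in the main text.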

How the results depend on the processing

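No called direction of a named gene reversed in Th17 HA against Th1 HA under the 22 alternatives tried, though the sign of some genes that were not called, such as Nfkbiz and Lta, changed. Where all 147 named genes could be fitted, 122 to 147 stayed on the same side of the threshold. The contrast arrays alone called 556 genes in Th17 HA against Th1 HA and 310 in Th17 HA against Th9 HA, with fewer residual degrees of freedom. Leaving out 1 array gave 591 to 1065 calls in Th17 HA against Th1 HA, 455 to 1043 in Th17 PBAB against Th1 PBAB, 209 to 546 for the difference between HA and PBAB, and 364 to 719 in Th17 HA against Th9 HA. In the PBAB comparison the counts were 455 without Th1 PBAB 1, 515 without Th1 PBAB 2, 608 without Th17 PBAB 1 and 494 without Th17 PBAB 2, from 1083. Where an array left a group with 1 array, that array was assumed to vary like the other groups. With the replicate number as a block, pairing the arrays, the counts were 2373 in Th17 HA against Th1 HA, 2642 under PBAB, 1828 for the difference between activations and 1831 in Th17 HA against Th9 HA. Under the block, 11 of the 147 genes gained a call and none lost one. The share of calls that were higher in Th17 HA was 44.0%, and 36.7% without Th1 HA 2 to 49.2% with the block. The median of all genes stayed between −0.01 and 0.05. Of the 1069 called genes, 166 had a group mean below the filter threshold of 5.07, where differences are least certain. The number of arrays limits all precision here.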

Other observations

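Pattern recognition genes of myeloid cells outside the fixed lists also differed, and they were picked after their values were seen. Clec4e, the receptor Mincle, read 6.68 and 7.23 in Th17 HA and 3.86 and 3.52 in Th1 HA, below the threshold in Th1 HA (3.27 ± 0.23, adjusted p = 1.89e-05). Clec4n, the receptor Dectin-2, read 7.87 and 8.96 in Th17 HA and 4.79 and 5.20 in Th1 HA (3.42 ± 0.33, adjusted p = 0.000121), and Clec7a, the β-glucan receptor Dectin-1, 8.60 and 9.09 in Th17 HA and 5.56 and 5.31 in Th1 HA (3.41 ± 0.30, adjusted p = 6.36e-05). Wfdc17, a secreted myeloid protein, read 9.29 and 9.83 in Th17 HA and 6.33 and 5.98 in Th1 HA (3.41 ± 0.26, adjusted p = 2.73e-05). Arg1, arginase 1, read 8.16 and 6.77 in Th17 HA and 4.11 and 4.49 in Th1 HA (3.17 ± 0.60, adjusted p = 0.00968), and this call was lost without Th1 HA 1 or Th17 HA 1 (adjusted p = 0.0631 and 0.0756). In APC alone arrays the means were 4.92 for Clec4e, 10.04 for Clec4n, 11.73 for Clec7a, 11.18 for Wfdc17 and 8.87 for Arg1. The Arg1 mean covers unlike arrays, at 4.99 for Th1, 9.23 for Th17 and 12.39 for Th9. Th9 HA averaged 3.45 for Clec4e, 6.19 for Clec4n, 8.19 for Clec7a, 8.24 for Wfdc17 and 7.85 for Arg1. Clec7a and Arg1 were not called between Th17 HA and Th9 HA (adjusted p = 0.321 and 0.883). The part of splenocyte RNA in these differences was not tested.

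Among the 29 genes called in opposite directions under HA and PBAB, 3 more were picked after their values were seen. S100a6, a calcium-binding protein, read 9.28 and 9.63 in Th17 HA and 11.98 and 11.83 in Th1 HA, a difference of −2.45 under HA against 1.35 under PBAB. Rhoq, a small GTPase, read 8.88 and 8.98 in Th17 HA and 10.61 and 10.57 in Th1 HA, a difference of −1.66 under HA against 1.89 under PBAB. Nr4a3, an orphan nuclear receptor induced by T cell receptor signals, moved the other way. It read 7.78 and 7.96 in Th17 HA and 6.40 and 5.94 in Th1 HA, a difference of 1.70 under HA against −1.38 under PBAB, and its HA call was lost with the mean of its probe sets (adjusted p = 0.0505).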
